A study of Mus musculus with 12 samples.

Results

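Kit encodes KIT (CD117), the cell-surface receptor for stem cell factor, and is described here in 12 RNA-seq libraries of mouse regulatory T cells (Tregs). It is 1 gene of the 17955 in the deposited table, and it was chosen by its measured level in these libraries. That level is higher in Tregs with a deleted transketolase gene, more so when the mice also received DMαKG. Levels of Kit across the groups are therefore given as a description, with no test. Tregs were sorted as CD4+CD25+YFP+ cells from spleen and lymph node of 7-week-old C57BL/6 mice, with 3 mice in each of 4 groups. Wild-type mice (WT) were Foxp3YFP-creTKT+/+ and knockout mice (cKO) were Foxp3YFP-creTKTfl/fl, so every mouse carried the Foxp3-driven YFP-Cre, and Tkt was deleted in cells that express Foxp3. Tkt encodes transketolase, which moves carbon units between sugars in the pentose phosphate pathway. Mice of each genotype drank water with vehicle or with DMαKG, a cell-permeable ester of α-ketoglutarate, which was given from the pregnancy of the dam until the offspring were adult.

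KIT is a class III receptor tyrosine kinase. Binding of stem cell factor (the product of Kitl) pairs 2 receptors, which phosphorylate each other and recruit adaptors and kinases of the RAS, phosphoinositide 3-kinase and STAT5 pathways, while the ubiquitin ligase CBL and phosphatases such as SHP-1 shut the signal off. In blood and immune tissue KIT is known from haematopoietic stem and progenitor cells, mast cells, early thymocytes and some innate lymphoid cells. It is not among the genes that usually define a mature Treg.

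Kit (gene 16590) lies on the plus strand of chromosome 5, from 75574987 to 75656722 in GRCm38, and overlaps 0 other genes of the deposited table. Among its transcripts in the GENCODE M21 annotation, Kit-201 and Kit-204 both have 21 exons and differ, among other things, in where exon 9 ends (75639158 in Kit-201 and 75639146 in Kit-204). Kit-201 is 5214 and Kit-204 5241 bases long, so the end of exon 9 is not their only difference. The deposited counts are per gene and do not separate these forms. The stretch around that exon end is shown so that the difference can be seen, with 24 bases on each side of the 12 bases (4 codons) that Kit-201 contains there and Kit-204 does not, in capitals, on the plus strand.
Kit-201: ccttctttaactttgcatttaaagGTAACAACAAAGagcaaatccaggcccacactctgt
Kit-204: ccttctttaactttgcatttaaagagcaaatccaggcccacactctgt

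The 250 bases before the annotated start of Kit are shown because levels of factors reported at Kit are given below. The sequence is from RefSeq (chr5:75574737-75574986, GRCm38.p6, plus strand), and capitals mark the single match to the GC box GGGCGG, to which the factor SP1 binds.
Kit promoter: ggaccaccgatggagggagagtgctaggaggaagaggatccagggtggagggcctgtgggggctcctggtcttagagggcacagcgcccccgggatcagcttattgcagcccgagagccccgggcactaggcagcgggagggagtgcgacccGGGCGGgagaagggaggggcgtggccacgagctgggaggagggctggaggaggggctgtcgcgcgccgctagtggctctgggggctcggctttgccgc
The match starts at position -98 from the start site, and 32.7% of 32851 promoters of the same length hold this motif on either strand. The window is 70.8% G or C with 17 CpG dinucleotides, against medians of 52.4% and 6 over all promoters. It held 0 matches to the GATA motifs TGATAA or AGATAA (present in 16.6% of promoters), 0 to CACGTG or CATGTG, the E-boxes of the MITF type (17.6%), and 0 to any E-box, CANNTG, a motif that includes both MITF forms (66.2%). These matches describe letters in this window only.

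Kit was low in WT Tregs and higher in cKO Tregs. The vehicle-treated WT mice 2, 3 and 4 had Kit levels of 4.23, 5.94 and 6.35 CPM (read counts scaled to library size after TMM normalization). In cKO mice given vehicle the levels were 9.37, 9.23 and 12.2 CPM in replicates 2, 3 and 4. All 3 cKO libraries lay above all 3 WT libraries, with 2.88 CPM between the nearest of them. The group means were 10.3 ± 1.66 and 5.51 ± 1.12 CPM (SD, n = 3), a ratio of 1.86 and a log2 fold change of 0.90 (SE 0.18). The libraries of these groups also did not overlap for 15.3% of the 12903 genes tested.

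With DMαKG the difference between genotypes was wider. WT replicates 1, 2 and 3 stood at 7.85, 6.75 and 6.40 CPM of Kit, and cKO replicates 1, 2 and 3 at 18.8, 19.7 and 19.8 CPM. The lowest cKO library was 10.9 CPM above the highest WT library. The means were 19.4 ± 0.57 and 7.00 ± 0.757 CPM (SD, n = 3), a ratio of 2.78 and a log2 fold change of 1.47 (SE 0.18). Of all genes tested, 15% had libraries that did not overlap in this comparison.

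**Figure D1:**
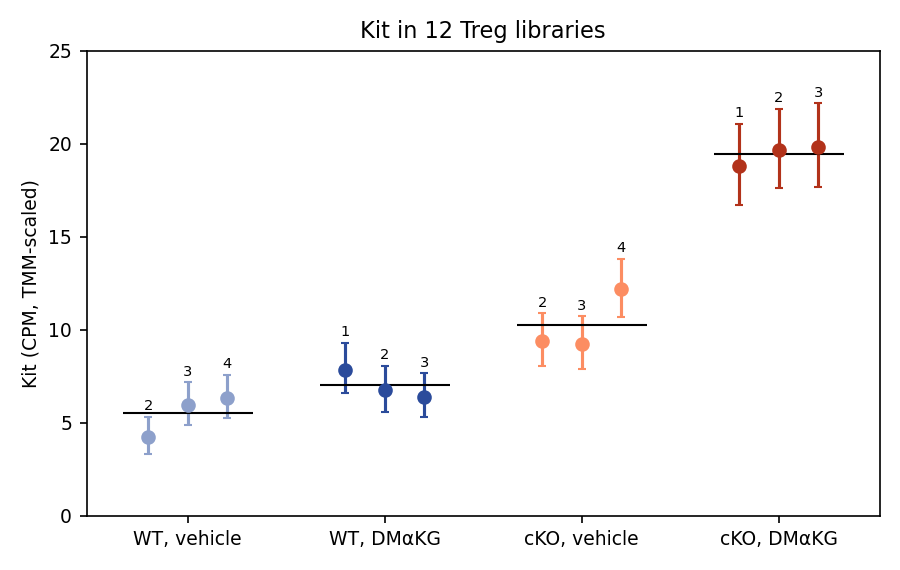
Kit in each of the 12 libraries, in CPM of the TMM-scaled library, with 95% Poisson intervals of the count as bars, replicate numbers above and the group mean as a black line. The cKO libraries with DMαKG sit between 18.8 and 19.8 CPM, those with vehicle between 9.23 and 12.2 CPM, and all WT libraries at or below 7.85 CPM.

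The effect of DMαKG on Kit was larger in cKO than in WT mice by these means. In cKO mice Kit was 1.89 times as high with DMαKG as with vehicle (log2 fold change 0.92, SE 0.18), and the 2 groups of libraries did not overlap, as for 21.1% of genes. In WT mice it was 1.27 times as high (log2 fold change 0.34, SE 0.18). There the highest vehicle library and the lowest DMαKG library were only 0.0555 CPM apart, and 8.45% of genes did not overlap. The difference between the genotype effects was 0.58 on the log2 scale (SE 0.25). These comparisons share libraries pairwise, so their values for Kit are not independent of each other.

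In order of mean level, Kit ran from WT with vehicle over WT with DMαKG and cKO with vehicle to cKO with DMαKG, the last at 3.53 times the first. The 2 WT groups were not separated beyond their spread, since their values overlapped on the TPM scale (which accounts for transcript length). With vehicle WT Kit was 1.86, 2.74 and 2.93 TPM in replicates 2, 3 and 4, and with DMαKG it was 3.17, 2.84 and 2.92 TPM in replicates 1, 2 and 3. For cKO mice the TPM values were 4.27, 3.91 and 5.08 with vehicle and 7.66, 8.45 and 6.99 with DMαKG. The steps from WT with DMαKG to cKO with vehicle and from there to cKO with DMαKG were without overlap on either scale.

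The depth behind these values was modest. Rounded Kit counts ran from 75 to 121 in WT with vehicle, 119 to 134 in WT with DMαKG, 168 to 236 in cKO with vehicle and 290 to 341 in cKO with DMαKG. For the lowest library, WT vehicle replicate 2, the exact 95% Poisson interval was 3.33 to 5.31 CPM. For cKO DMαKG replicate 1 it was 16.7 to 21.1 CPM, a range that holds all 3 libraries of its group. Such intervals cover counting error only. By TPM, Kit ranked between 8549 and 10840 among the 17955 genes, so it was a transcript of low abundance in every library.

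Other features of the libraries were read beside Kit. Library depth, as the sum of estimated counts, was 1.57e+07 to 1.89e+07. Tkt was 71.8 to 142 TPM in the 6 WT libraries and 17.9 to 28.1 TPM in the 6 cKO libraries. Its RNA was thus lower in cKO but not absent. Y-linked Ddx3y was low (0.518 and 0.509 CPM) in cKO DMαKG replicates 1 and 3 and high (155 CPM) in replicate 2, while Kit was 18.8, 19.8 and 19.7 CPM in these libraries. The 4 Y-linked genes summed to 16.4 to 528 CPM in WT and 348 to 449 CPM in cKO with vehicle. The sum of 16.4 CPM was in replicate 3 of WT with vehicle. With DMαKG they summed to 60.9 to 518 CPM in WT and 15.2 to 316 CPM in cKO. In cKO every library with DMαKG was thus below every library with vehicle. Y-linked level and treatment therefore cannot be fully told apart in cKO. With mean Y-linked expression as a covariate the Kit log2 fold changes between genotypes were 0.91 with vehicle and 1.46 with DMαKG. For DMαKG they were 0.35 (SE 0.20) in WT and 0.90 (SE 0.22) in cKO. The difference between the genotype effects was then 0.55 (SE 0.31). The main axis of variation (principal component 1) placed 3 libraries close together, replicate 4 of WT with vehicle (34.1), replicate 4 of cKO with vehicle (35.1) and replicate 3 of WT with DMαKG (31.2). Replicate 3 of cKO with DMαKG had the opposite extreme, -48.4. Leaving out the first 3, an alternative chosen after seeing the data, gave Kit log2 fold changes between genotypes of 0.86 with vehicle and 1.41 with DMαKG. In cKO DMαKG replicate 3 Kit was highest of its group by CPM and lowest by TPM (6.99). The FPKM values of that library sum to 534252, against 434545 to 481043 in the others.

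The libraries carried the genes that define Tregs. Over all 12, Cd4 ran from 644 to 864 CPM, Foxp3, the lineage factor, from 279.6 to 544.9 CPM, and Il2ra, which encodes CD25, from 467 to 776 CPM. Foxp3 overlaps Ccdc22, and reads of the pair may not be separable, because no source used here says whether counting took strand into account.

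Kit is also the classical marker of mast cells, so mast cell genes were read in the same libraries. Of 15 markers 12 were in the table. Fcer1a, the alpha chain of the high-affinity IgE receptor, and the tryptase gene Tpsb2 had a count of 0 in all 12 libraries. Cma1, Mcpt2 and Mcpt4, which encode mast cell chymases, were above 0 in a single library each, at no more than 0.0565 CPM; Mcpt2 overlaps Mcpt9. Cpa3, mast cell carboxypeptidase, was 0.0565, 0.111 and 0.105 CPM in WT and 0.325, 0.439 and 0.206 CPM in cKO with vehicle, higher in all 3 cKO libraries as Kit was. With DMαKG Cpa3 was 0.0586, 0 and 0.267 CPM in WT and 0, 0.115 and 0.127 CPM in cKO, where Kit was highest. It had too few counts to be tested, and its part in the Kit values was not tested. Gata2, a factor of mast cells and progenitors, did not exceed 0.0648 CPM and Mrgprb1 did not exceed 0.309 CPM. Hpgds, a prostaglandin D synthase also made by other immune cells, took most of the list's sum, at 6.77 to 14.9 CPM. Ms4a2 ran from 1.81 to 3.67 CPM, Slc18a2 from 0.842 to 2.94 CPM and Hdc, histidine decarboxylase, from 0.226 to 1.58 CPM.

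Summed over the mast cell list, the level was 14.1 to 15.4 CPM in WT and 13.6 to 14.8 CPM in cKO with vehicle, and 13.0 to 17.3 CPM in WT and 11.5 to 21.6 CPM in cKO with DMαKG. The groups overlapped throughout, unlike those of Kit. In each library 5 to 8 of the 12 markers were at 0. Basophil markers summed to 2.27 to 4.35 CPM over all libraries. In bulk samples, fewer cells of a type and less RNA per cell cannot be told apart.

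For the other cell types in which KIT is known, no list summed higher in cKO than in WT without overlap in either treatment. Those of haematopoietic stem and progenitor cells summed to 4.25 to 9.15 CPM in WT and 3.15 to 4.56 CPM in cKO with vehicle, and to 3.86 to 4.64 CPM in WT and 4.21 to 6.23 CPM in cKO with DMαKG. Hlf, Flt3 and Cd93 led this list, and Cd34 did not exceed 0.13 CPM. Markers of innate lymphoid cells were lower in cKO than in WT with vehicle, at 42.4 to 73.3 against 98.0 to 109 CPM, opposite in direction to Kit. With DMαKG they overlapped, at 62.2 to 84.8 CPM in cKO and 67.5 to 114 CPM in WT. Il1rl1 and Areg led that list, and Tregs express these genes too. Early thymocyte markers, led by Themis, Mgst2 and Cd8b1, summed to 129.6 to 144 CPM in WT and 98.4 to 119 CPM in cKO with vehicle, and to 118 to 139 CPM in WT and 106 to 142 CPM in cKO with DMαKG. With vehicle this sum was thus lower in cKO, opposite in direction to Kit. Themis took the largest part of it, with means of 80.3 CPM in WT and 61.4 CPM in cKO with vehicle. Rag1 had means of 0.073 and 0.071 CPM in the same groups.

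Some lists of other cell types had their highest sums in cKO with DMαKG, as Kit did, though with overlap between groups. NK cell markers (led by Klrb1c, Prf1 and Eomes) summed to 8.98 to 10.02 CPM in WT and 9.59 to 13.8 CPM in cKO with vehicle, and to 7.85 to 9.75 CPM in WT and 6.87 to 15.5 CPM in cKO with DMαKG. B cell markers (led by Cd79b and Cd79a) summed to 14.8 to 25.1 CPM in WT and 13.5 to 25.6 CPM in cKO with vehicle, and to 16.6 to 22.3 CPM in WT and 18.5 to 43.8 CPM in cKO with DMαKG. All 8 B cell markers had a higher fitted level in cKO than in WT with DMαKG, and also with DMαKG than with vehicle in cKO (median log2 fold change 0.63), as did all 4 tested NK cell markers in the first of these comparisons. By edgeR's adjusted p and by DESeq2 0 of them passed. Over all genes edgeR called 0.186% in the first comparison and 0% in the second, and DESeq2 0.98% and 3.18%. At an unadjusted edgeR p under 0.05 there were 1 of 4 tested NK cell markers in the first and 1 of 8 B cell markers in the second. Of all genes tested, 10.4% and 17.3% were under that p in these comparisons. Erythroid markers, led by Tfrc, which dividing T cells also express, Gata1 and Hba-a1, summed to 136 to 172 CPM in WT and 140.0 to 216 CPM in cKO with vehicle, and to 129 to 195 CPM in WT and 183 to 282 CPM in cKO with DMαKG. Of the 7 tested erythroid markers, 1 was higher and 6 were lower in cKO than in WT with DMαKG (median log2 fold change -0.66). For DMαKG against vehicle in cKO, 1 was also higher and 6 lower (-0.39). Mean Tfrc was 135 CPM in WT and 194 CPM in cKO with DMαKG. The part of these cells in the Kit values was not tested. Dendritic cell markers, led by Bst2, Ccr9 and Siglech, were 54.5 to 91.5 CPM in WT and 43.4 to 53.2 CPM in cKO with vehicle. Macrophage and monocyte markers, led by Csf1r, Lyz2 and C1qa, were 67.8 to 175 CPM and 44.2 to 104 CPM in the same groups. With DMαKG the dendritic cell sums were 48.4 to 52.7 CPM in WT and 41.7 to 55.0 CPM in cKO, and the macrophage sums 50.7 to 176 CPM and 78.7 to 198 CPM. Neither list was higher in cKO than in WT with vehicle, where Kit was. Treg and T cell identity genes, led by Ctla4, Ikzf2 and Cd4, summed to 5057 to 5165 CPM in WT and 4810 to 5620 CPM in cKO with vehicle, and to 5276 to 6596 CPM in WT and 6665 to 7605 CPM in cKO with DMαKG. This sum was therefore highest in the group where Kit was highest. Every library of that group lay above all other libraries, as for Kit. The part of these genes in the Kit values was not tested. The 10 identity genes did not share a direction, with 5 higher and 5 lower in cKO than in WT with DMαKG (median log2 fold change -0.02). Ctla4 had means of 1319 CPM in WT and 2425 CPM in cKO with DMαKG. Foxp3 had means of 435 and 419 CPM in the same groups.

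**Figure D2:**
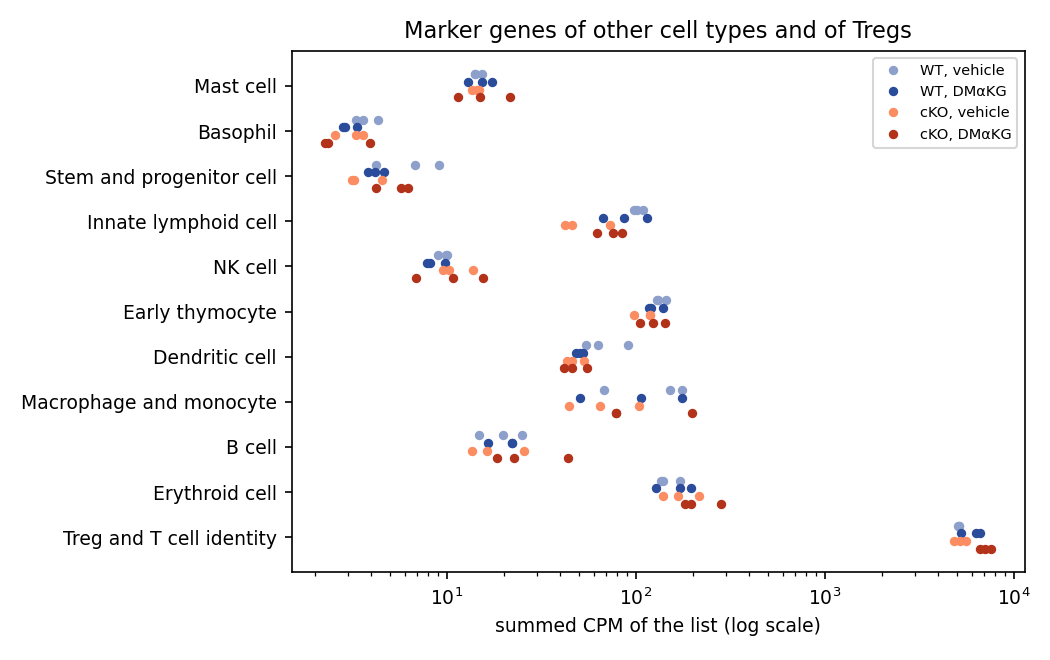
Summed CPM of each marker list (log scale) in each library, coloured by group. The mast cell sums of the 4 groups overlap, between 11.5 and 21.6 CPM, and identity genes of Tregs and T cells sum to between 4810 and 7605 CPM.

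The ligand and the relatives of KIT were then examined. Of the 88 genes other than Kit in 4 lists (receptor family and ligands, signal transduction, negative regulators, and transcription factors reported at Kit), 79 had enough counts to be tested. By edgeR's quasi-likelihood test 0 of the 79 passed an adjusted p of 0.05 in any of the 5 comparisons. Over all genes tested, 0.062% passed for cKO against WT with vehicle, 0.186% with DMαKG, and 0% for DMαKG in either genotype and for the interaction. DESeq2 called 1 of 84 KIT-related genes with an adjusted p in cKO against WT with vehicle (Lyl1), 1 of 82 with DMαKG (Sp1), 1 of 77 for DMαKG in cKO (Crkl), and 0 of 88 in the other comparisons. Over all genes with an adjusted p, DESeq2 called 0.668%, 0.98% and 3.18% in the first 3 of these, 0.0113% for DMαKG in WT and 0.00564% for the interaction, so a single member is near the background or, for DMαKG in cKO, below it.

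At an unadjusted p under 0.05 there were 12 of the 79 genes for cKO against WT with vehicle (15.2%, against 7.29% of all genes), 4 with DMαKG (5.06% against 10.4%), 4 for DMαKG in WT (5.06% against 2.73%), 6 for DMαKG in cKO (7.59% against 17.3%) and 6 for the interaction (7.59% against 3.64%). Several of the 12, such as Flt3, Lyn and Bcl11a, are also genes of dendritic, myeloid or B cells, whose marker sums are given above, and the part of those cells in these values was not tested.

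Kitl, the gene of stem cell factor, was close to the detection limit, with 3 to 12 reads per library. With vehicle Kitl was 0.565, 0.666 and 0.367 CPM in the WT libraries and 0.162, 0.329 and 0.206 CPM in the cKO libraries. With DMαKG it was 0.176, 0.51 and 0.16 CPM in WT replicates 1, 2 and 3 and 0.324, 0.577 and 0.509 CPM in cKO. The cKO libraries were thus below the WT libraries with vehicle and overlapped them with DMαKG. The log2 fold changes between genotypes were -1.17 (edgeR adjusted p = 0.664) and 0.73 (adjusted p = 0.662), and their difference of 1.90 did not pass either (adjusted p = 0.955).

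Among the class III receptors, Csf1r, which encodes the receptor of the macrophage growth factor CSF1, and Kit had the highest mean TPM in every group. Csf1r ranged widely in each group, from 7.54 to 28.0 TPM in WT and 3.04 to 16.0 TPM in cKO with vehicle, and from 5.98 to 30.8 TPM in WT and 9.78 to 21.4 TPM in cKO with DMαKG. Its log2 fold change between genotypes with vehicle was -1.25 (adjusted p = 0.846). Flt3, the receptor of FLT3 ligand on progenitors and dendritic cells, was 3.19, 1.40 and 1.02 TPM in WT and 0.59, 0.53 and 0.28 TPM in cKO with vehicle, opposite in direction to Kit. Its log2 fold change there was -1.91 (SE 0.54, adjusted p = 0.335); Flt3 overlaps Gm26597 and is uncertain. Pdgfra and Pdgfrb, the receptors of platelet-derived growth factors, did not exceed 0.04 and 0.12 TPM and had too few counts to be tested.

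The ligands Flt3l and Csf1 were more abundant than Kit in every library, at 80.2 to 121 TPM for Flt3l and 15.0 to 35.6 TPM for Csf1. Their log2 fold changes between genotypes were 0.11 and 0.16 with vehicle and 0.15 and 0.10 with DMαKG. Pdgfb, a platelet-derived growth factor chain, was 1.32 to 4.20 TPM, and Pdgfa and Il34 did not exceed 0.19 and 0.08 TPM. Of the 6 tested genes of the family, 3 were higher and 3 lower in cKO with vehicle (median log2 fold change -0.53, against 0.0072 over all genes), and 4 were higher and 2 lower with DMαKG (0.13, against -0.00044).

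**Figure D3:**
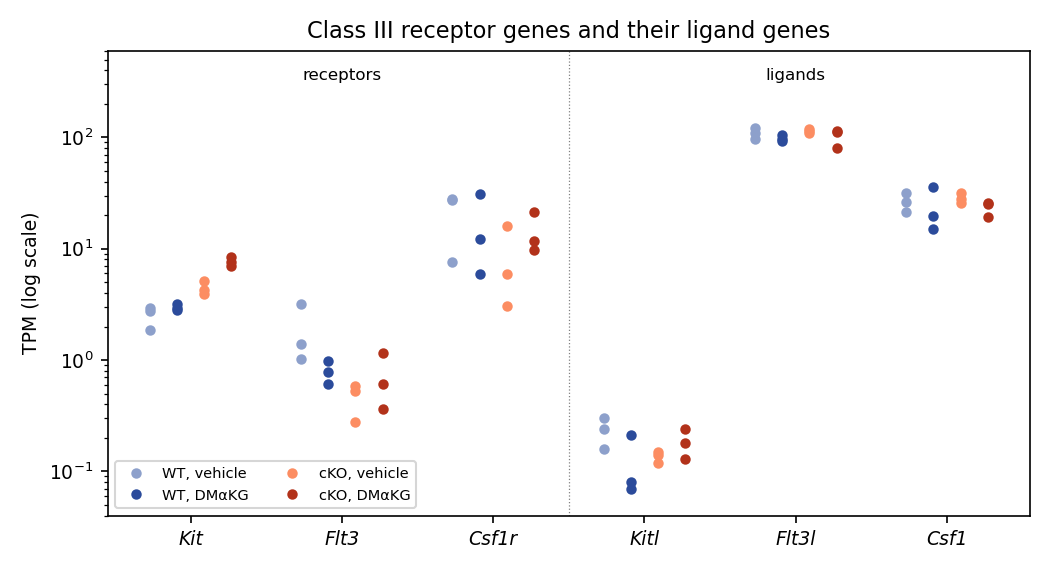
Levels in TPM (log scale) of 3 class III receptor genes and 3 ligand genes, each point a library, coloured by group. Kit lies between 1.86 and 8.45 TPM and is higher in cKO in both treatments, whereas Flt3 is lower in cKO with vehicle and Kitl stays at or below 0.3 TPM.

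Among the genes that carry the KIT signal, 0 passed edgeR's test in any comparison. Of 37 tested members, 24 were higher and 13 lower in cKO with vehicle (median log2 fold change 0.04, against 0.0072 over all genes), and 13 higher and 24 lower with DMαKG (-0.02, against -0.00044). For DMαKG the medians were 0.0029 in WT (all genes -0.0013) and -0.12 in cKO (all genes 0.0037). The member with the smallest p was Crkl, an adaptor of the CRK family. In cKO, Crkl was 143, 142 and 139 CPM under vehicle against 103, 99.4 and 76.7 CPM under DMαKG, without overlap. This is a log2 fold change of -0.60 (SE 0.14, edgeR adjusted p = 0.132), where Kit was higher by 0.92.

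Stat5a, a transcription factor activated by KIT and by the interleukin-2 receptor, was 117, 114 and 111 CPM in WT and 139, 148 and 143 CPM in cKO with vehicle. The cKO libraries were all higher, by 0.33 on the log2 scale (SE 0.11), and this did not pass (adjusted p = 0.436). Lyn, a SRC-family kinase of myeloid and B cells, was 14.6, 12.2 and 10.3 CPM in WT and 4.06, 7.96 and 4.74 CPM in cKO with vehicle (log2 fold change -1.14, adjusted p = 0.529). Hras, a RAS GTPase, had its smallest p for DMαKG in cKO, where its mean was 18.5 CPM under vehicle and 13.8 CPM under DMαKG (-0.42 on the log2 scale, adjusted p = 0.204).

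Negative regulators of KIT likewise had 0 genes passing. With vehicle 9 of 18 tested members were higher and 9 lower in cKO (median log2 fold change 0.0029), and with DMαKG 4 were higher and 14 lower (-0.15). Socs1, an inhibitor of cytokine receptor signalling, was 30.4, 28.8 and 42.1 CPM in WT and 53.2, 52.0 and 50.2 CPM in cKO with vehicle. The groups did not overlap, and the log2 fold change of 0.62 (SE 0.23) did not pass (adjusted p = 0.549). Spred1, an inhibitor of RAS signalling, had means of 24.4 and 31.7 CPM in the same groups (log2 fold change 0.38, adjusted p = 0.547). Sh2b3, the adaptor LNK, which restrains KIT in haematopoietic cells, had cKO means of 85.0 CPM under vehicle and 60.0 CPM under DMαKG (-0.50 on the log2 scale, adjusted p = 0.217). Prkca, protein kinase C alpha, had WT means of 249.8 CPM under vehicle and 315 CPM under DMαKG (adjusted p = 0.999).

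The transcription factors reported at Kit showed no common direction. In cKO 7 of 18 tested members were higher and 11 lower, both with vehicle (median log2 fold change -0.04) and with DMαKG (-0.04). Lyl1, a basic helix-loop-helix factor of progenitors, was 1.41, 1.33 and 1.73 CPM in WT replicates 2, 3 and 4 and 4.55, 3.29 and 2.53 CPM in cKO replicates 2, 3 and 4, all given vehicle. With DMαKG Lyl1 was 1.46, 1.81 and 1.87 CPM in WT and 2.59, 2.89 and 2.16 CPM in cKO. The cKO libraries were higher in both treatments without overlap, with log2 fold changes of 1.21 (SE 0.27, adjusted p = 0.153) and 0.57 (adjusted p = 0.494). Unlike Kit, Lyl1 was not higher with DMαKG in cKO, and it is uncertain because it overlaps Nfix.

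Gata1, best known from erythroid and mast cells, was 18.3, 17.9 and 20.7 CPM in WT and 25.7, 29.0 and 38.2 CPM in cKO with vehicle, without overlap (log2 fold change 0.71, SE 0.19, adjusted p = 0.309). With DMαKG it was 18.4, 28.7 and 17.4 CPM in cKO, where Kit was highest, and 21.4 to 21.8 CPM in WT. Sp1, whose GC box is marked in the promoter above, was 240, 233 and 276 CPM in WT and 191, 196 and 163 CPM in cKO with DMαKG, lower in all 3 cKO libraries (log2 fold change -0.44, SE 0.12, adjusted p = 0.235). Bcl11a, a factor of B cells and plasmacytoid dendritic cells, was 3.95, 1.17 and 0.787 CPM in WT and 0.0542, 0.769 and 0.619 CPM in cKO with vehicle (-2.01, adjusted p = 0.468). Gata2, Tal1 and Zbtb16 had too few counts to be tested.

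**Figure D4:**
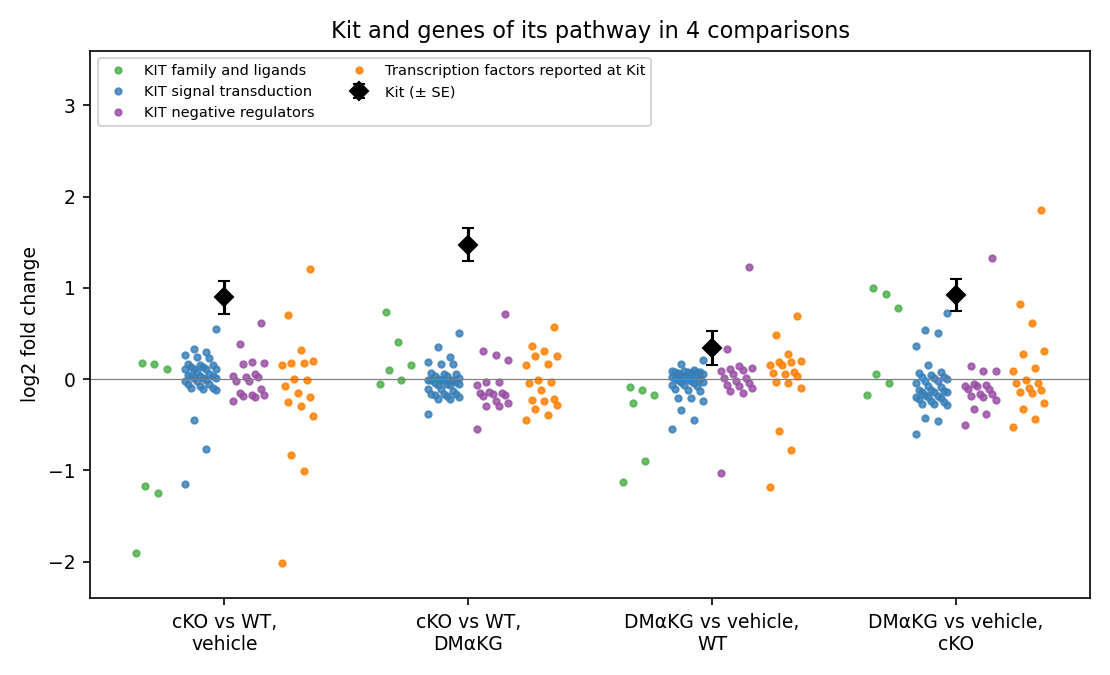
Log2 fold change of Kit (black diamond, with SE) and of the tested genes of 4 lists in the 4 pairwise comparisons, each point a gene. Kit lies at 0.90, 1.47, 0.34 and 0.92, while most genes of the lists lie near 0 and 0 passed edgeR's adjusted threshold.

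The neighbours of Kit on chromosome 5 were read to see whether the difference extended along the chromosome. They are Fip1l1, Lnx1, Chic2, Gsx2 and Pdgfra before it and Kdr, Srd5a3, Tmem165, Clock and Exoc1 after it. Gsx2, Pdgfra and Kdr had too few counts to be tested. Kdr, which encodes a vascular endothelial growth factor receptor, was 0.0577 to 1.24 CPM and was highest in WT vehicle replicate 2, where Kit was lowest. The other 7 had log2 fold changes between -0.65 (Lnx1) and 0.19 (Tmem165) in cKO with vehicle and between -0.48 (Lnx1) and 0.06 (Exoc1) with DMαKG, and 0 of them passed edgeR's test at an adjusted p of 0.05. Lnx1 and Fip1l1 overlap each other. Clock, a circadian transcription factor, was 51.3, 52.2 and 47.1 CPM under vehicle and 64.2, 62.4 and 75.2 CPM under DMαKG in cKO, without overlap (0.42 on the log2 scale, SE 0.11, adjusted p = 0.145).

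The genes with the pattern most like that of Kit were found by Pearson correlation of log2 CPM over the 12 libraries, among 11713 protein-coding genes with a mean of at least 1 CPM, immunoglobulin and T cell receptor segments left out. The correlations are a description: the libraries share their group structure, and the highest of many values are shown. They were Ccdc40, a gene of motile cilia (r = 0.96), Klhl35, a member of the Kelch-like family (0.96), Il1r2, the decoy receptor of interleukin-1 (0.95), Slc2a6, which encodes the transporter GLUT6 (0.94), and Fam135a (0.93).

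Ccdc40 was 0.734, 0.999 and 1.42 CPM in WT and 2.27, 2.20 and 3.20 CPM in cKO with vehicle, and 1.52, 1.81 and 1.49 CPM in WT and 3.82, 3.98 and 4.07 CPM in cKO with DMαKG. Its group means fell in the same order as those of Kit, and it is uncertain because it overlaps Tbc1d16. Il1r2 was the most abundant of the 5, with means of 34.7 CPM in WT and 61.8 CPM in cKO with vehicle and 39.9 CPM in WT and 148 CPM in cKO with DMαKG. Its 3 cKO libraries with DMαKG stood at 149, 112 and 184 CPM, above all other libraries. Slc2a6 had means of 1.69 and 2.59 CPM with vehicle and 1.60 and 4.09 CPM with DMαKG in WT and cKO, and Fam135a of 0.868 and 1.63 CPM and of 0.880 and 2.77 CPM. Klhl35 had the narrowest range, from 1.41 to 3.05 CPM.

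**Figure D5:**
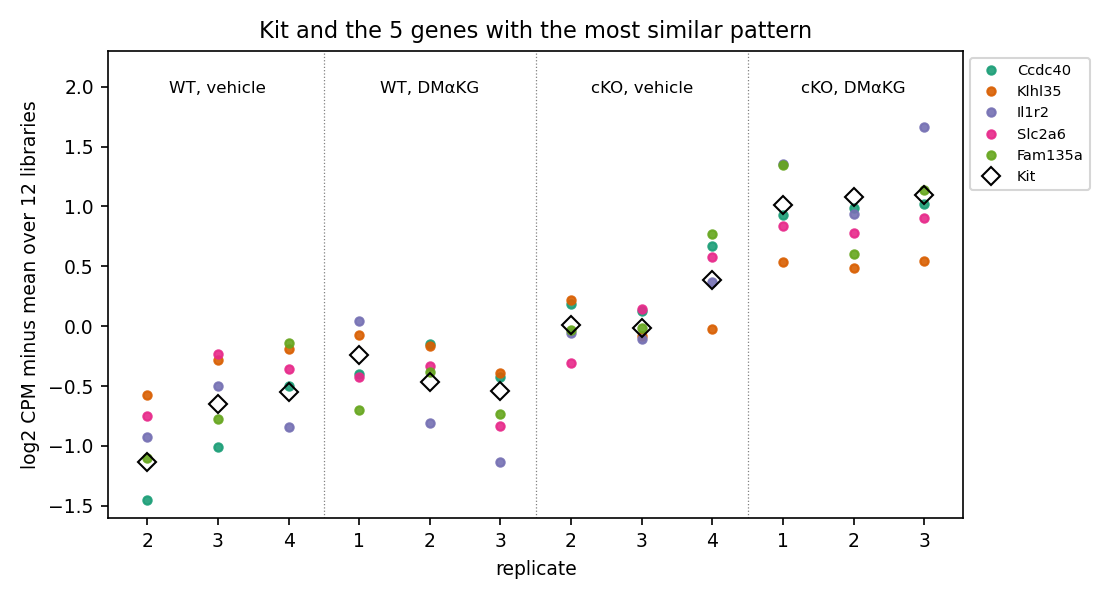
Log2 CPM of Kit (open diamonds) and of the 5 genes most correlated with it, each minus its own mean over the 12 libraries, by group and replicate. For 5 of these 6 genes every cKO library with DMαKG lies above all other libraries (Fam135a is the exception). The 6 genes were picked by their pattern over these libraries, so this separation follows in part from the choice. Replicate 4 of cKO with vehicle, where Kit was 12.2 CPM, is the highest of its group for Kit.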

How the data were processed

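RNA-seq of 12 Treg libraries was analysed from a table of 17955 genes. Groups and replicate numbers come from the sample titles. The estimated counts that the authors deposited are not normalized; 36.0% of values were not whole, and they were rounded (tests had been planned for whole counts). The authors also deposited FPKM, used only as a sum per library, and TPM, used to compare levels between genes, per the file headers. Build mm10 is listed in the submitters' processing notes beside DESeq2 1.16.1, featureCounts 1.5.0-p3 and HISAT2 2.0.5, whose roles are not given. Gene IDs were matched to RefSeq on GRCm38.p6 (17901 matched).

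After edgeR's filter on low counts 12903 genes were left, which were scaled by TMM, and fitted in edgeR 4.0.16 (R 4.3.3) with 1 mean per group over all 12 libraries, 8 residual degrees of freedom and robust quasi-likelihood; p-values were Benjamini-Hochberg adjusted within each of 5 comparisons at 0.05. DESeq2 1.42.0 was an alternative, with other scalings, no filter, fits on the groups compared, a replicate block, a Y-linked covariate, log2(TPM + 0.1) and each library left out. The fit was tested on simulated data. Same-numbered libraries of the 2 genotypes did not deviate together in every pair, so the numbers were not taken as pairing. Kit, the gene lists and the settings were chosen with earlier results of these data known. Named were Kit, Tkt, all genes of the family list, the 4 members with the smallest p of each other pathway list, 5 neighbours on each side, the 5 genes most like Kit by each of 2 measures, all mast cell markers and the 3 most abundant markers of each other list. Some of these markers are not reported here.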

Additional observations from a re-analysis of the deposited data

How the results depend on the processing

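Kit kept its direction under all alternatives run, each value moving by less than the spread between replicates (0.21 on the log2 scale). Without each library in turn its log2 fold change was 0.74 to 1.01 for cKO against WT with vehicle, 1.41 to 1.58 with DMαKG, 0.19 to 0.46 for DMαKG in WT, 0.86 to 1.06 for DMαKG in cKO, and 0.46 to 0.73 for the interaction. The value for DMαKG in WT was 0.19 without WT vehicle replicate 2 and 0.52 without the 3 libraries close together on principal component 1 (an alternative chosen after seeing the data), against 0.34 with all. By log2(TPM + 0.1) the 5 values were 0.81, 1.34, 0.26, 0.79 and 0.53. With the replicate block they were 0.90, 1.48, 0.45, 1.03 and 0.57, with 0 KIT-related genes called. Same-numbered libraries of the genotypes had correlations of deviations of -0.12 to 0.44 with vehicle and -0.27 to -0.09 with DMαKG. The highest, 0.44, was for replicate 4 with vehicle. Whether same-numbered libraries shared more than a number was not tested.

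The count of KIT-related genes past the threshold, 0 in every comparison, was 1 with DESeq2 for cKO against WT with vehicle, for cKO against WT with DMαKG and for DMαKG in cKO, where DESeq2 called 0.668%, 0.98% and 3.18% of all genes. It was also 1 for DMαKG in cKO without WT DMαKG replicate 3 (Crkl, edgeR adjusted p = 0.041), so that leaving out libraries gave 0 to 1 there; the cause was not tested. Fits on only the groups compared do not apply to the interaction. Of the 5 genes most like Kit, 5 were also the top 5 by TPM and 2 by Spearman's rho. Kit counts of 75 to 341 limit the precision for each library.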

Other observations

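The genes whose deviations from the group means ran most closely with those of Kit were others than the genes most like it over all libraries. They were Ncmap, which encodes a myelin-associated membrane protein (r = 0.92), Mlh3, a mismatch repair gene (0.91), Rbmx, an RNA-binding protein gene (0.91), Pink1, a kinase of mitochondrial quality control (0.91), and Tmc3, a member of the transmembrane channel-like family (0.90). These are the highest of 11713 values over 12 libraries with 4 group means removed, and are a description. Ncmap was 16.7, 22.3 and 24.8 CPM in WT and 14.2, 12.7 and 19.8 CPM in cKO with vehicle, so its cKO mean was the lower one, with overlap. Among mice of a group its order was that of Kit, except in cKO with DMαKG. There Ncmap was 19.5, 18.5 and 19.0 CPM in replicates 1, 2 and 3, where Kit was 18.8, 19.7 and 19.8 CPM. Rbmx was 34.2, 47.1 and 50.8 CPM in WT replicates 2, 3 and 4 and 33.1, 37.3 and 48.7 CPM in cKO replicates 2, 3 and 4 with vehicle, and 41.2 to 42.5 CPM in cKO with DMαKG, where Kit also varied least.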
